A study of Mus musculus with 14 samples.

Results

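Atg14 belongs to the Vps34 complex that starts autophagy, and the comparison described here asked whether the difference between regulatory T cells (Tregs) labeled Atg14 knockout (KO) and their controls was the same in effector as in central Tregs. For each gene the KO minus control difference in effector Tregs (eTregs) was taken, and the KO minus control difference in central Tregs (cTregs) was subtracted from it. This quantity is called the interaction below. It is positive where the KO minus control difference was higher in eTregs than in cTregs, and negative where it was lower. All 14 Clariom S mouse arrays of the series entered the comparison, as 4 arrays of control cTregs, 3 of KO cTregs, 4 of control eTregs and 3 of KO eTregs. It was computed for the 22203 of 28846 entries on the array that carry a gene symbol and are not control probe sets, each a transcript cluster, which is the set of probes that reads 1 gene.

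The cells came from mixed bone marrow chimeras. CD45.2+ marrow of Foxp3Cre Atg14+/fl donors (control, titled het) or of Foxp3Cre Atg14fl/fl donors (KO) had been mixed in equal parts with CD45.1+ wild-type marrow and given to sublethally irradiated Rag1-/- hosts, and the cells were allowed to regrow for some weeks. The Foxp3Cre allele, which removes floxed DNA in cells that express Foxp3, was thus carried in all groups, and the controls kept 1 Atg14 allele without loxP sites. According to the methods of the study, some Foxp3Cre Atg14fl/fl mice used in it also had an allele already deleted outside Tregs. Rag1-/- hosts lack their own T and B cells, but they keep their own macrophages, dendritic cells and natural killer (NK) cells. cTregs were sorted as CD4+ Foxp3-YFP+ cells low in CD44, and eTregs as cells high in CD44, with a further surface marker that is not reported here. The genetic models of the study were on the C57BL/6 background and of both sexes, and the age and sex behind each array were not given in the sources used here. Both subsets were sorted from 4 control and 3 KO chimeras, so cTreg and eTreg arrays share animals, but no source says which array came from which animal.

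Vps34 makes phosphatidylinositol 3-phosphate on internal membranes. It works in complex I with Atg14, which directs it to the membrane from which autophagosomes form, or in complex II with Uvrag, which serves endosomes. Autophagosomes carry cell material to lysosomes for breakdown. cTregs are the resting Tregs that recirculate through lymphoid tissue and depend on IL-2, whereas eTregs are activated cells that express more inhibitory and homing receptors.

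Atg14 itself was not lower in the arrays labeled KO. Its log2 signal was 9.24, 9.33 and 9.29 on KO cTreg 1 to 3, 9.26, 8.96, 8.64 and 8.89 on control cTreg 1 to 4, 9.15, 9.0 and 9.32 on KO eTreg 1 to 3, and 8.92, 9.01, 8.77 and 8.64 on control eTreg 1 to 4. The arrays of both genotypes overlapped in each subset. The difference was 0.32 ± 0.14 (SE) in eTregs and 0.35 ± 0.14 in cTregs, and the interaction was -0.03 (95% interval -0.44 to 0.38, adjusted P = 0.991). The study reports that it verified Atg14 deletion by quantitative PCR in total Tregs of Foxp3Cre Atg14fl/fl mice, rather than in the sorted subsets on these arrays. Which exons the probes read was not analyzed here. Every direction below is therefore a direction between labels, and KO names the arrays labeled so.

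The sort markers followed the subset labels. Foxp3 lay between 12.74 and 13.12 on all 14 arrays, and Cd44 between 9.14 and 9.86 on cTreg and between 10.60 and 11.52 on eTreg arrays. KO eTreg 1 stood apart from the other KO eTreg arrays. On the first principal component of all genes it lay at -4.30, between the cTreg arrays (-26.6 to -12.8) and the control eTreg arrays (5.26 to 21.9), whereas KO eTreg 2 and 3 lay at 39.9 and 39.5. Where leaving it out changed a count or a list median most, both values are given. The median signal of an array was between 8.77 and 8.90, and that of its background control probes between 6.0 and 6.30.

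No single gene passed adjustment for the interaction when all arrays were used. In limma, 0 of 22203 transcript clusters (0%) had an absolute interaction of 0.5 or more with a Benjamini-Hochberg adjusted P below 0.05, and the lowest adjusted value was 0.107. Without adjustment, P was below 0.05 for 1358. At the threshold that the study uses (an absolute log2 difference of 0.5 or more and an unadjusted P below 0.05) the interaction called 677 transcript clusters, which is 3.05% of those tested. The interaction was positive for 405 (1.82%) and negative for 272 (1.23%). Positive interactions were thus 59.8% of the calls, but 48.5% with the 75th percentile of each array subtracted and 69.6% with the array medians subtracted. At the same threshold 604 transcript clusters (2.72%) were called between genotypes in eTregs and 128 (0.576%) in cTregs, with 34 called in both.

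The effects in both subsets had opposite signs for 604 of the 677 called interactions (89.2%), and for 52.2% of all transcript clusters. Choosing by a large difference between both effects favors opposite signs, so this describes the choice. Among the positive ones, 278 had an unadjusted P below 0.05 for the genotype effect in eTregs only, 54 in cTregs only, 33 in both and 40 in neither. Among the negative ones these numbers were 138, 55, 20 and 59. The eTreg side thus held the larger part of both. Signal also differed between both directions. The highest of the 4 group means was at or above the median of all transcript clusters (8.82) for 304 of the 405 positive interactions. It was so for 85 of the 272 negative ones, and this share was not counted over all transcript clusters. In 26 of the 677 all 4 means lay at or below background, as they did for 2019 of all those tested. With a filter at the 60th percentile of mean signal, 226 interactions were called, 179 positive and 47 negative.

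**Figure D1:**
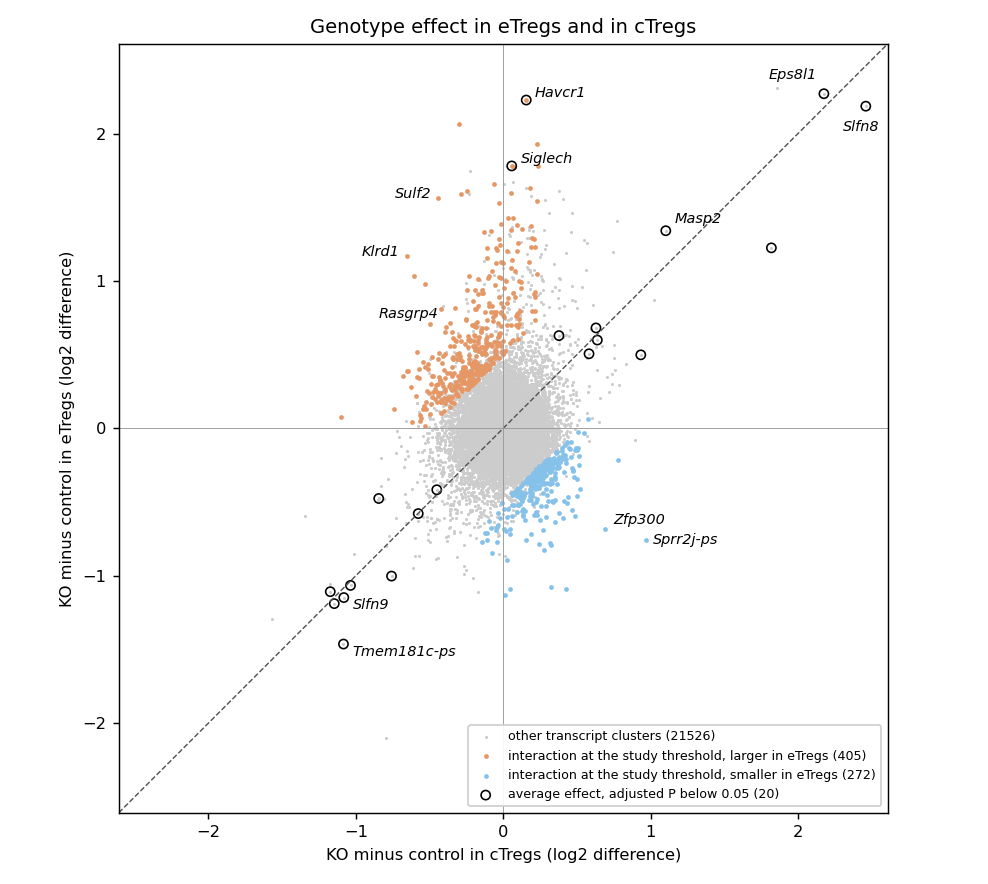
Each point is 1 transcript cluster, with the KO minus control difference in cTregs on the x axis and in eTregs on the y axis (both log2). Orange and blue points are the 405 positive and 272 negative interactions at the study threshold, open circles are the 20 transcript clusters with an adjusted P below 0.05 for the average of both effects, and the dashed line marks equal effects. Siglech and Havcr1 lie far above the line near 0 on the x axis, whereas Slfn8, Eps8l1 and Slfn9 lie close to the line.

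Promoters are shown for 5 genes on which the description turns. Siglech and Havcr1 were higher in KO eTregs but hardly differed in cTregs, Slfn8 and Eps8l1 were higher in both KO subsets, and Slfn9, which neighbors Slfn8, was lower in both. The sequences are the 250 bases before the start of each gene in RefSeq (build GRCm38.p6), read 5′ to 3′ on the gene's own strand. They lie at chr7:55767934-55768183 (plus strand) for Siglech, chr11:46739973-46740222 (plus) for Havcr1, chr7:4460447-4460696 (plus) for Eps8l1, chr11:83020811-83021060 (minus) for Slfn8 and chr11:82991831-82992080 (minus) for Slfn9. Capitals mark 3 short motifs searched on both strands, which do not overlap in these windows: CANNTG (the E-box, the kind of site that Tcf4 and other helix-loop-helix factors bind), GAAANNGAA (the core of the interferon response element) and GAGGAA (the PU box).
Siglech: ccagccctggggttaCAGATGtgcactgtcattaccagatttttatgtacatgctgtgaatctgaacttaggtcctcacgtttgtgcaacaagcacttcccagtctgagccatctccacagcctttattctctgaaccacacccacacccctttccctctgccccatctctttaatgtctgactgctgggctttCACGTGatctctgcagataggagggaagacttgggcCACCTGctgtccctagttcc
Havcr1: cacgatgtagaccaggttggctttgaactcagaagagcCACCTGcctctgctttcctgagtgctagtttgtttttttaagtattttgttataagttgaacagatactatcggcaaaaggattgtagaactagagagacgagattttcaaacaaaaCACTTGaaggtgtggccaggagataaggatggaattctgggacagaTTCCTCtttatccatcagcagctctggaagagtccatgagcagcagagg
Slfn8: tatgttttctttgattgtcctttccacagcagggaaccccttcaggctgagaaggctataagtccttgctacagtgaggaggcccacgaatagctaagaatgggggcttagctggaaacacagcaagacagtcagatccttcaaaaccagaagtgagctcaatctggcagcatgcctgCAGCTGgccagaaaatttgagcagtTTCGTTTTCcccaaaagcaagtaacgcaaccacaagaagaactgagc
Slfn9: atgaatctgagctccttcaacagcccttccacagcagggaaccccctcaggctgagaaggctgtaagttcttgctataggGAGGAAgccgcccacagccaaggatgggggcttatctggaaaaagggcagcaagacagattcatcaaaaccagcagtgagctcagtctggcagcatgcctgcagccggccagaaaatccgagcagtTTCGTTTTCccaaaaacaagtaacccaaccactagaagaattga
Eps8l1: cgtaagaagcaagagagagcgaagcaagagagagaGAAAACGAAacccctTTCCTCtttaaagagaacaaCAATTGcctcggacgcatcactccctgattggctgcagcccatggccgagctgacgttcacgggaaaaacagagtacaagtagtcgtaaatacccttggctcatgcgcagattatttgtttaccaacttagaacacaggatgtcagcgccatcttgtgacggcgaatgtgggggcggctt

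The windows of Slfn8 and Slfn9 were identical at 205 of 255 aligned columns (80.4%), and in both the interferon element lies close to the gene start (47 and 44 bases before it). Slfn8 and Eps8l1 had 46.8% identical columns, and Siglech and Havcr1 47.8%. Of 42 genes named by rule here, Atg14 included, 40 were matched to RefSeq by accession and 1 by symbol, and 31 had a promoter in the table used. The E-box was held by 6 of 7 such windows of genes with a positive interaction and by 7 of 9 with a negative one, and by 66% of all 27025 windows. The interferon element was held by 4 of 12 windows of genes with an effect in both subsets (Slfn8, Slfn9, Eps8l1 and Irgm2), by 0 of the 7 and 1 of the 9 (Nipsnap1), and by 7.16% of all windows. The PU box was held by 23.1% of all windows and by 4 of those 12. These matches describe letters and are no evidence of binding.

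Genes with a positive interaction are taken first. The 10 with the smallest P among those whose highest group mean reached 8.82 were Rasgrp4, Siglech, Sulf2, Havcr1, Retsat, Tspan4, Tcf4, Fbxo5, Msmp and Klrd1. All 10 had a higher mean in KO than in control eTregs, and 8 had a lower mean in KO than in control cTregs (all but Siglech and Havcr1). Since they were chosen by this P value, these counts describe the choice.

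Rasgrp4 (TC0700000522.mm.2, chromosome 7 by its identifier), an exchange factor that activates Ras, differed between genotypes in opposite directions. It read 9.69, 9.72 and 9.46 on KO eTreg 1 to 3 and 8.96, 8.90, 9.0 and 8.89 on control eTreg 1 to 4, but 9.11, 8.73 and 8.94 on KO cTreg 1 to 3 and 9.44, 9.21, 9.22 and 9.40 on control cTreg 1 to 4. Arrays of both genotypes did not overlap in either subset. The KO mean was 1.61-fold higher in eTregs and 1.31-fold lower in cTregs, and the interaction was 1.08 ± 0.16 (SE; 95% interval 0.74 to 1.41; limma adjusted P = 0.107). In controls the gene was thus lower in eTregs than in cTregs, and in arrays labeled KO it was higher.

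Siglech (TC0700000931.mm.2, chromosome 7), a lectin known as a marker of plasmacytoid dendritic cells, differed in eTregs. It read 9.78, 10.79 and 10.65 on KO eTreg 1 to 3 against 8.86, 8.55, 8.73 and 8.37 on control eTreg 1 to 4, with no overlap. On cTreg arrays it read 8.19, 8.14 and 8.23 in KO and 8.29, 8.07, 8.18 and 7.96 in controls. The cTreg arrays of both genotypes overlapped, and none reached the level of any eTreg array. The KO mean was 3.44-fold higher in eTregs and 1.04-fold higher in cTregs, with an interaction of 1.72 ± 0.27 (95% interval 1.15 to 2.30, limma adjusted P = 0.113).

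Havcr1 (TC1100000483.mm.2, chromosome 11), which encodes the phosphatidylserine receptor TIM-1, had the largest interaction of the 10, at 2.07 ± 0.37 (95% interval 1.28 to 2.86, limma adjusted P = 0.219). It read 8.25, 9.56 and 9.53 on KO eTreg 1 to 3 against 7.28, 6.44, 6.91 and 6.91 on control eTreg 1 to 4, which is 4.69-fold by the means. On all 7 cTreg arrays it lay between 6.66 and 7.23, not far above background. All 3 KO eTreg arrays were above every other array, with KO eTreg 1 the lowest of them.

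Sulf2 (TC0200005164.mm.2, chromosome 2), an enzyme that removes sulfate groups from heparan sulfate outside cells, showed the next largest interaction, at 2.00 ± 0.33 (95% interval 1.29 to 2.71, limma adjusted P = 0.151). It read 10.91, 10.30 and 10.36 on KO eTreg 1 to 3 and 8.62, 9.38, 8.96 and 8.88 on control eTreg 1 to 4, whereas KO cTregs read 9.70, 9.71 and 10.24 and control cTregs 10.98, 10.19, 9.98 and 10.13. Here KO eTreg 1 was the highest of the 3, and KO eTregs were within the range of control cTregs (9.98 to 10.98). Retsat, which saturates retinol, was likewise lowest in control eTregs: 11.00, 10.94 and 10.84 on KO eTregs, 9.64 to 10.34 on control eTregs, 10.75 to 11.01 on KO cTregs and 10.98 to 11.36 on control cTregs, with an interaction of 1.19 ± 0.23.

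Klrd1 (CD94, a receptor subunit of NK and CD8 T cells) also passed the study threshold in each subset with opposite signs. It read 8.49, 8.58 and 9.82 on KO eTreg 1 to 3 against 7.42, 7.48, 8.34 and 7.95 on control eTreg 1 to 4, and 7.54, 8.19 and 7.47 on KO cTreg 1 to 3 against 8.26, 8.15, 8.34 and 8.80 on control cTreg 1 to 4. KO eTreg 3 alone stood above 9. The KO mean was 2.25-fold higher in eTregs and 1.58-fold lower in cTregs (interaction 1.82 ± 0.42, limma adjusted P = 0.545).

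The other 4 had smaller interactions. Tspan4, a membrane-organizing tetraspanin, had an interaction of 0.97 ± 0.20, and Fbxo5, an inhibitor of the anaphase-promoting complex in the cell cycle, 0.73 ± 0.17, and neither overlapped between genotypes in either subset. Tcf4, a helix-loop-helix factor required by plasmacytoid dendritic cells, read 10.65, 10.83 and 11.11 on KO eTreg 1 to 3 and 10.25 to 10.38 on control eTregs, and its interaction was 0.73 ± 0.16. Msmp, which encodes a small secreted protein, had an interaction of 0.92 ± 0.21. Their limma adjusted P values lay between 0.430 (Tspan4) and 0.545 (Fbxo5 and Msmp).

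Genes with a negative interaction were named by the same rule: Sprr2j-ps, Rufy2, Efcab11, Scd4, Mt4, Nipsnap1, Lsamp, Armcx2, Serp2 and Maged2. All 10 had a lower mean in KO than in control eTregs, and 9 had a higher mean in KO than in control cTregs (all but Armcx2). Over both directions, arrays of both genotypes did not overlap in eTregs for 19 of the 20 named genes (all but Serp2) and in cTregs for 7. Among all 677 called interactions that share was 36.8% in eTregs and 17.5% in cTregs for the positive and 40.1% and 17.6% for the negative ones, and among all transcript clusters 6.85% and 5.05%.

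Sprr2j-ps (TC0300000830.mm.2, chromosome 3), a pseudogene of the small proline-rich protein family, had the largest negative interaction of these, at -1.72 ± 0.33 (95% interval -2.41 to -1.03, limma adjusted P = 0.254). It read 9.54, 9.25 and 9.24 on KO eTreg 1 to 3 and 9.62, 10.34, 10.43 and 10.004 on control eTreg 1 to 4. On cTregs it read 10.67, 10.62 and 10.31 in KO and 9.16, 9.28, 9.59 and 10.24 in controls. The genotypes did not overlap in either subset, though by a small margin, since KO eTreg 1 lay just below control eTreg 1 and KO cTreg 3 just above control cTreg 4.

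Rufy2, whose protein binds phosphatidylinositol 3-phosphate through a FYVE domain, read 10.36, 10.17 and 10.35 on KO eTreg 1 to 3 against 10.72, 10.71, 10.79 and 10.91 on control eTreg 1 to 4. On cTregs it read 10.83, 10.70 and 10.56 in KO and 10.39, 10.55, 10.51 and 10.57 in controls, which overlapped. The interaction was -0.68 ± 0.14 (95% interval -0.98 to -0.37, limma adjusted P = 0.446). Nipsnap1, a mitochondrial protein with a role in the removal of mitochondria by autophagy, read 8.93, 9.24 and 9.22 on KO eTregs and 9.78 to 9.94 on control eTregs, a fall of the mean by 1.69-fold, and overlapped on cTregs (9.25 to 9.60 in KO, 8.88 to 9.79 in controls). Its interaction was -0.91 ± 0.23.

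The rest lay between -1.09 and -0.59. Lsamp, a cell adhesion molecule best known from neurons, was at -1.09 ± 0.29, the metallothionein Mt4 at -0.96 ± 0.24 and the fatty acid desaturase Scd4 at -0.91 ± 0.22. Mt4 and Scd4 did not overlap between genotypes in either subset, with opposite directions. Efcab11 was at -0.83 ± 0.19, Serp2, related to a protein that protects nascent proteins in the endoplasmic reticulum, at -0.69 ± 0.19, and the X-linked genes Armcx2 and Maged2 at -0.63 ± 0.17 and -0.59 ± 0.17. Armcx2 was the gene of these whose effect lay in eTregs alone, with 10.38, 10.16 and 10.14 on KO eTreg 1 to 3 against 10.79 to 11.00 on control eTregs, and a difference of -0.04 in cTregs.

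**Figure D2:**
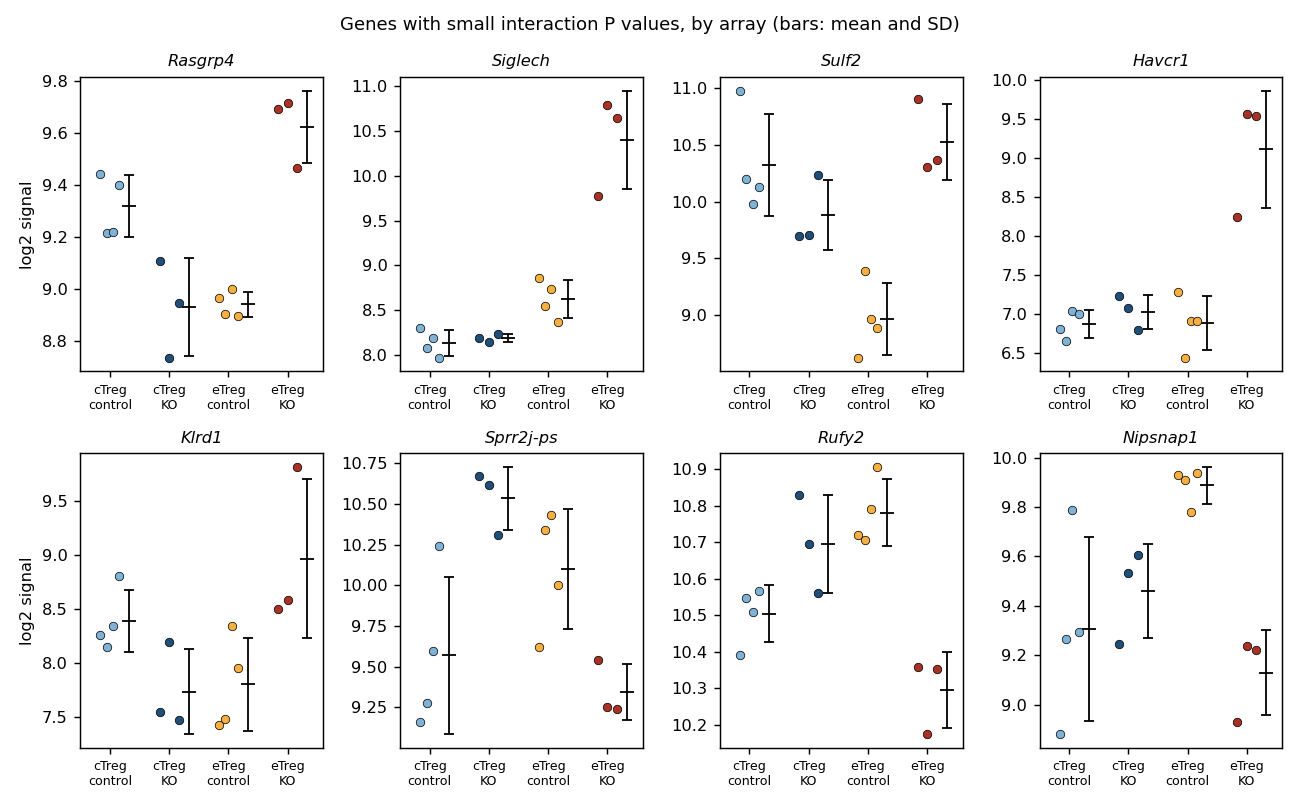
Log2 signal of 8 genes with small interaction P values on each of the 14 arrays, by subset and genotype label, with each gene on its own y axis; black bars give the mean and SD of a group. In the upper row and for Klrd1 the KO eTreg arrays lie above all control eTreg arrays, and for Sprr2j-ps, Rufy2 and Nipsnap1 they lie below them.

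Only 5 of 22203 transcript clusters passed the study threshold in both subsets with opposite signs. Effects chosen so must also pass it for the interaction, so that all 5 did describes the choice. Besides Klrd1 and Sprr2j-ps these were Arhgap32, Zfp300 and Me2. Arhgap32, which turns off small GTPases, was 2.05-fold higher in KO eTregs and 1.52-fold lower in KO cTregs (interaction 1.64 ± 0.39), with KO eTreg 1 at 7.77 inside the control range of 7.02 to 7.93 and KO eTreg 2 and 3 at 9.10 and 8.74. Zfp300, an X-linked zinc finger gene, had an interaction of -1.38 ± 0.37, and its KO eTreg arrays were far apart (7.09, 6.20 and 7.74). Me2, the mitochondrial malic enzyme, was 1.43-fold higher in KO eTregs and 1.5-fold lower in KO cTregs, with overlap in both subsets (interaction 1.1 ± 0.30).

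Leaving out KO eTreg 1 changed the number of called interactions more than leaving out any other array. It left KO eTreg 2 and KO eTreg 3 as the only arrays of their group. When it was left out, 1430 transcript clusters were called at the study threshold, of which 576 were among the 677, and 207 (0.932%) passed the adjusted threshold. Of these 207 the interaction was positive for 197 and negative for 10, and 117 were among the 677. The 5 positive ones with the smallest P were Fcgr3, Slc11a1, Siglech, Lrp1 and Cfb, among which Fcgr3 is an antibody receptor, Slc11a1 a metal transporter of phagosomes, Lrp1 a scavenger receptor and Cfb a complement factor, all known from myeloid cells. Of the 10 negative ones, only Efcab11, Sprr2j-ps and Rufy2 had a group mean at or above 8.82.

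For Fcgr3, Slc11a1, Lrp1 and Cfb KO eTreg 1 lay within, close to or below the range of the control eTregs, whereas for Siglech it lay above that range. Fcgr3 read 9.40 on KO eTreg 1, 11.17 and 11.59 on KO eTreg 2 and 3, and 9.0 to 9.21 on control eTregs. Slc11a1 read 9.35 on KO eTreg 1, 11.44 and 11.22 on the others and 9.28 to 9.55 on control eTregs, and Cfb 7.95, 11.26 and 11.39 against 8.70 to 9.29. The interaction of Fcgr3 was 1.45 with all arrays and 2.11 without KO eTreg 1, and that of Cfb was 1.41 and 2.53. In contrast, Rasgrp4, Sulf2 and Retsat were as high on KO eTreg 1 as on the other KO eTreg arrays. Their interactions with 1 array left out or under another setting ranged from 0.98 to 1.17, from 1.69 to 2.18 and from 1.07 to 1.30.

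Markers of other cell types were then set beside the interaction. The hand-written lists here and below were drawn up with earlier results of these data known, so their counts describe the lists. Over 7 lists for myeloid cells (macrophages with monocytes, neutrophils, dendritic cells), B lineage cells (B cells and plasma cells), CD8 T cells with NK cells, and erythroid cells, 19 of 126 transcript clusters were called for the interaction, and all 19 were positive. In 32 macrophage genes 7 were called, where 1.82% of all transcript clusters had a positive call. These were Fcgr3, Timd4, Adgre4, C1qc, Cd300e, Adgre1 and Itgam, and 30 of the 32 were above 0. The median interaction of the list was 0.86 against -0.03 over all transcript clusters. With all arrays, the median genotype effect was 1.03 in eTregs and 0.19 in cTregs. Without KO eTreg 1 the median interaction was 1.70, and 18 of 32 passed the adjusted threshold, as did 0.932% of all transcript clusters. That array had the lowest list mean of the eTreg arrays, so a rise of the interaction without it was bound to follow.

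The mean log2 signal of the macrophage list was 8.18 on KO eTreg 1, 10.39 on KO eTreg 2, 10.44 on KO eTreg 3 and 8.56 to 8.95 on control eTregs. On cTreg arrays it was 7.78 to 8.01 in KO and 7.66 to 7.81 in controls. KO eTreg 1 was thus the lowest of all eTreg arrays, the other KO eTreg arrays were the highest, and control eTregs were above all cTregs. The markers that define macrophages were well above background on these arrays: C1qa read 8.84, 12.10 and 12.18 on KO eTreg 1 to 3 and 9.66 to 10.32 on control eTregs, and Csf1r 8.99, 11.90 and 11.69 against 9.12 to 9.70. None of the 32 had all 4 group means at or below background. In RNA from a whole sorted sample, fewer cells of a type and less RNA per cell cannot be told apart, and the part of other cells in the interactions was not tested.

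Dendritic cell genes were also on the positive side. Of 26, 8 were called, all positive, where 1.82% of all transcript clusters had a positive call. These were Klrd1, Siglech, Cd209d, Clec4a4, Ccr9, Tcf4, Bcl11a and Xcr1. Since the list was written with earlier results of these data known, this count is no independent support. The median interaction was 0.52, or 0.84 without KO eTreg 1. The list mean was 9.0, 9.66 and 9.94 on KO eTreg 1 to 3, 8.86 to 8.97 on control eTregs, 8.68 to 8.80 on KO cTregs and 8.63 to 8.74 on control cTregs. Here KO eTreg 1 lay just above the controls, whereas it was below them for macrophage genes. Flt3 and Zbtb46, which mark dendritic cells of most kinds, had interactions of -0.28 and 0.03, neither called. Of the genes named above, Siglech and Tcf4 are members of this list and Klrd1 of this and the NK cell list. The part of dendritic cells in their values was not tested.

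B cell and NK cell lists also held positive calls, above the 1.82% of all transcript clusters. B cell genes had 3 of 16 (Fcrla, Vpreb3 and Cd79a), whereas Ms4a1, which encodes the B cell marker CD20, had an interaction of -0.33 and no call. CD8 T cell and NK cell genes had 2 of 18 (Klrd1 and Gzmk, a granzyme), with a list mean of 8.42, 8.68 and 8.91 on KO eTreg 1 to 3 and 8.22 to 8.46 on control eTregs. Neutrophil, plasma cell and erythroid genes had 0 of 14, 0 of 8 and 0 of 14. In lists so short these counts are near the 3.05% of all transcript clusters.

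**Figure D3:**
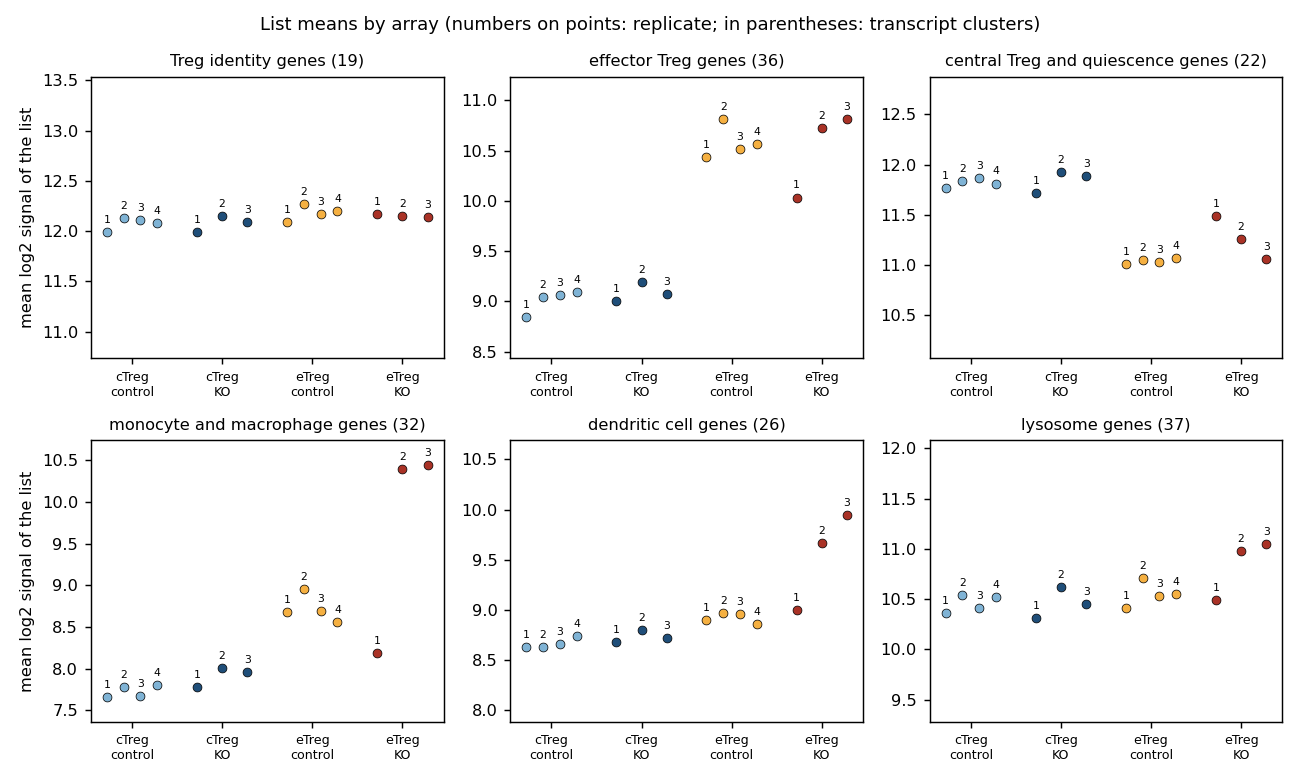
Mean log2 signal of 6 gene lists on each array, by subset and genotype label, with the replicate number at each point and y axes of their own; the number of transcript clusters is in parentheses. KO eTreg 1 lies below all other eTreg arrays for effector Treg genes (10.03) and macrophage genes (8.18) and above them for central Treg genes (11.48), and Treg identity genes lie between 11.99 and 12.27 on all arrays.

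Genes that define Tregs held no called interaction. Of 19 Treg identity genes 0 were called for the interaction, nor for the genotype effect in either subset, and the median interaction was -0.05. With 3.05% of all transcript clusters called, a count of 0 in so short a list is near the background. Foxp3 had an interaction of -0.00, Ctla4, an inhibitory receptor, of -0.06 and Il2ra, the IL-2 receptor alpha chain, of 0.30. At an unadjusted P below 0.05 alone there was none either, the nearest being Ikzf2 (Helios) at -0.34.

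The median interactions of effector and of central Treg genes lay on opposite sides with all arrays. Both lists were written with earlier results of these data known, so this is no independent result. Of 36 effector Treg transcript clusters 3 were called. Havcr2 (TIM-3), an inhibitory receptor, was positive at 0.90 ± 0.31. Tnfrsf1b, the receptor TNFR2, and 1 of 3 transcript clusters of Rora, a nuclear receptor, were negative at -0.64 and -0.54. Over all transcript clusters 1.82% had a positive and 1.23% a negative call, so the 1 positive call is near the background. Tnfrsf1b read 10.36, 10.75 and 10.89 on KO eTreg 1 to 3 and 10.95 to 11.12 on control eTregs, and 10.13 to 10.49 on KO and 9.85 to 10.25 on control cTregs. The list's median interaction was -0.19, with 11 of 36 above 0. The receptors Tigit and Klrg1 and the transcription factor Prdm1 had interactions of -0.67, -0.61 and -0.41, none called.

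The median of the effector list turned to 0.04 when KO eTreg 1 was left out. Its mean was 10.03 on KO eTreg 1, 10.72 and 10.82 on the others and 10.44 to 10.81 on control eTregs. Tigit, for example, read 9.67 on KO eTreg 1, 11.05 and 10.94 on the others and 11.02 to 11.26 on control eTregs. Of 22 central Treg and quiescence genes 2 were called, both positive, where 1.82% of all transcript clusters had a positive call. These were Cnn3, an actin-binding protein, at 1.03 ± 0.39 and Atp1b1, a subunit of the sodium pump, at 0.64 ± 0.24. That list's median was 0.13 with all arrays and 0.04 without KO eTreg 1, which had its highest mean of any eTreg array.

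Lysosome genes had the highest median of the pathway lists, 0.25, with 30 of 37 above 0, where 43.6% of all transcript clusters were. Of these genes 5 were called, all positive, against 1.82% of all transcript clusters. These were Cd63, a membrane protein of late endosomes, at 1.29, the proteases Ctsd and Ctsz at 0.70 and 0.69, Atp6v0d1, a subunit of the proton pump, at 0.64, and Gusb, which degrades glycosaminoglycans, at 0.53. Cd63 read 9.86, 11.99 and 12.38 on KO eTreg 1 to 3 and 9.92 to 10.27 on control eTregs, so that the same arrays were high as for the macrophage list. Gusb read 10.68, 11.00 and 10.88 against 10.06 to 10.51 and did not overlap. Without KO eTreg 1 the list's median was 0.45, and 3 of 37 passed the adjusted threshold, where 0.932% of all transcript clusters passed it. Macrophages are rich in these proteins, and their share in this list's values was not tested.

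Genes of autophagy and of the Vps34 complexes held a single call. Of 38, 1 was called, Atg16l1, which helps to attach LC3 to membranes, at 0.60 ± 0.21, a share near the 3.05% of all transcript clusters. It read 9.39, 9.83 and 9.84 on KO eTreg 1 to 3 and 8.92 to 9.50 on control eTregs, which overlapped. The catalytic subunit Pik3c3 was at -0.01, Pik3r4 at 0.39, Becn1 at -0.09, Nrbf2 of complex I at -0.20 and Uvrag of complex II at 0.13, none called. The list's median interaction was 0.09, or 0.18 without KO eTreg 1.

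Growth-related lists had positive calls only, where 1.82% of all transcript clusters had one. Cell cycle genes had 4 of 36 called (the cyclins Ccne1 and Ccne2 at 0.64 and 0.79, the kinase Plk1 at 0.57 and the helicase subunit Mcm3 at 0.53), 28 of 36 above 0 and a median of 0.20, which became 0.02 with KO eTreg 2 left out and 0.33 with KO eTreg 1 left out. The mean of the list was 8.95 on KO eTreg 1, below the control eTregs (9.03 to 9.24), and 9.72 and 9.34 on KO eTreg 2 and 3, above them. Ribosome biogenesis genes linked to Myc had 3 of 36 called (Dkc1 and Srm, for pseudouridine and spermidine synthesis, at 0.71 and 0.66, and Tfb2m, a mitochondrial transcription factor, at 0.63), 28 above 0 and a median of 0.19. Dkc1 read 8.89, 8.98 and 8.98 on KO eTreg 1 to 3 and 8.23 to 8.42 on control eTregs, and Srm 11.43, 11.32 and 11.32 against 10.64 to 11.09, and neither overlapped. For Dkc1 and Srm, KO eTreg 1 was about as high as the other KO eTreg arrays.

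Cholesterol synthesis genes differed from the other pathway lists in where the difference lay. Their median genotype effect was -0.20 in cTregs and -0.03 in eTregs, and the median interaction 0.14. Fdps, which makes farnesyl diphosphate, was the 1 of 23 called (0.62 ± 0.20), a share near the 3.05% of all transcript clusters. It read 10.58, 10.67 and 10.55 on KO cTreg 1 to 3 and 10.84 to 11.37 on control cTregs, with no overlap. On eTregs it read 10.50 to 10.93 in KO and 10.25 to 10.58 in controls, with overlap.

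Interferon-stimulated genes had medians above those of all transcript clusters in both subsets. Their median genotype effect was 0.19 in eTregs and 0.14 in cTregs, against -0.02 and 0.02 over all transcript clusters, and the median interaction was 0.06. Oas2, an antiviral synthetase, was the 1 of 32 called for the interaction (0.77), a share near the 3.05% of all transcript clusters. Of 63 oxidative phosphorylation transcript clusters, 24 AP-1 and immediate early ones, 32 apoptosis and survival ones and 31 of defense against reactive oxygen species, 0 were called, and the medians were 0.04, -0.06, -0.04 and 0.12. Without KO eTreg 1 they were 0.15, -0.10, 0.05 and 0.23. The median for defense against reactive oxygen species was 0.005 without KO eTreg 2. With 3.05% of all transcript clusters called, counts of 0 in lists of this size are near the background.

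The study also lists genes that Vps34 suppresses or activates in Tregs, chosen on other arrays. Those arrays held total Tregs, not split into subsets, and the choice used an unadjusted P below 0.05. The study proposes that the proportions of cTregs and eTregs were altered in those cells when Vps34 was absent. Of 205 transcript clusters listed as suppressed, 33 had a positive and 4 a negative called interaction. Over all transcript clusters 1.82% had a positive and 1.23% a negative call, and the 4 lie near that share. The list's median interaction was 0.37, with median genotype effects of 0.34 in eTregs and 0.03 in cTregs. Without KO eTreg 1 the median was 0.39 and 44 passed the adjusted threshold, all positive, where 0.932% of all transcript clusters passed it. The positive calls included Tns3, an adhesion-linked tensin (1.88), Klrd1, the phospholipase Plcg2 (0.93) and the myeloid genes Fcgr3, Slc11a1, Pirb, Adgre4 and Cd300e. The list mean was 8.62 on KO eTreg 1, 9.08 and 9.16 on KO eTreg 2 and 3, 8.48 to 8.59 on control eTregs and 8.48 to 8.64 on all cTregs, so that of the KO eTreg arrays the one with the lowest macrophage markers was also the lowest here. Of 205 listed as activated, 3 had a positive call, near the 1.82% of all transcript clusters, and 8 a negative one, against 1.23%. This list's median was -0.03. Without KO eTreg 1 the median changed sign to 0.20, and the 1 that passed the adjusted threshold was positive. The negative ones included Nr3c2, the mineralocorticoid receptor (-1.1), and Car5b, a mitochondrial carbonic anhydrase (-1.02).

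**Figure D4:**
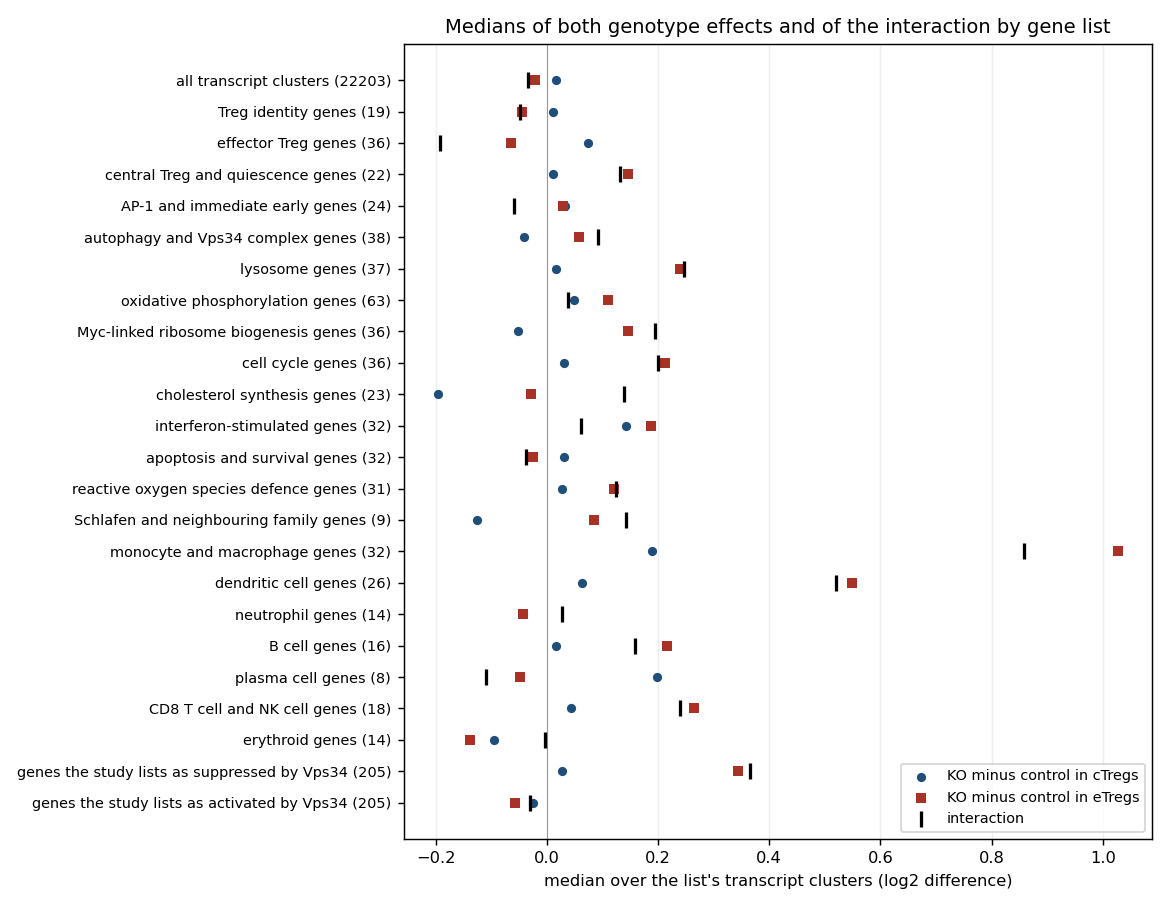
Median KO minus control difference in cTregs (circles) and eTregs (squares) and median interaction (bars), in log2 units, over the transcript clusters of each gene list, whose number is in parentheses. The macrophage (interaction 0.86), dendritic cell (0.52), Vps34-suppressed (0.37) and lysosome (0.25) lists lie farthest to the right, and the cholesterol list has the lowest cTreg value (-0.20).

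The opposite pattern, a like effect in both subsets, was read from the average of both genotype effects. For this average 20 transcript clusters (0.0901%) had a limma adjusted P below 0.05, 11 higher and 9 lower in arrays labeled KO, and all 20 had the same sign in both subsets. Of these, 2 (Siglech and Havcr1) had an average carried by eTregs and are described above. For the other 18 the 95% interval of the interaction included 0, and for 7 of the 20 it lay wholly within 0.5 either way: Tmem181b-ps, 4930481A15Rik, Mtmr9, H2-M3, Gm19684, Irgm2 and Pgm2. Over all transcript clusters such a narrow interval was found for 7271 (32.7%), and the median interval reached 0.41 to either side. For the remaining 11 a difference between subsets of 0.5 or more was not excluded. Arrays did not overlap in either subset for 17 of the 20, as for 79 of all transcript clusters (0.356%) with a like direction. Choosing by the average favors a shared sign and a lack of overlap, so these counts describe the choice.

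Members of the Schlafen family, which are induced by interferon and linked to growth control of lymphocytes, stood on both sides. Slfn8 (TC1100003382.mm.2, chromosome 11) read 11.69, 11.81 and 11.82 on KO cTreg 1 to 3 and 9.65, 9.18, 9.18 and 9.24 on control cTreg 1 to 4, and 11.81, 11.71 and 11.85 on KO eTreg 1 to 3 and 9.73, 9.52, 9.69 and 9.47 on control eTreg 1 to 4. KO arrays of both subsets lay within 0.2 of each other. The KO mean was 5.51-fold higher in cTregs and 4.55-fold higher in eTregs, and the interaction was -0.27 (95% interval -0.64 to 0.09).

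Slfn9 went the other way, with 9.90, 10.13 and 9.77 on KO cTregs against 10.93 to 11.16 on control cTregs, and 10.36, 9.39 and 9.99 on KO eTregs against 10.95 to 11.14 on control eTregs (interaction -0.07, 95% interval -0.58 to 0.44). The pseudogene Slfn10-ps was higher by 0.93 in cTregs and 0.50 in eTregs (interaction -0.44, 95% interval -0.91 to 0.04). The 3 are at places 1845, 1847 and 1849 in the RefSeq gene order of chromosome 11. Of 9 Schlafen family genes measured, the interaction was called for 0, which in so short a list is near the 3.05% of all transcript clusters. Slfn1, Slfn2, Slfn3, Slfn4, Slfn5 and Slfn14 had interactions of 0.03 to 0.43. Close copies can share probe signal, so the values of Slfn8, Slfn9 and Slfn10-ps are uncertain in how far each reads its own transcript.

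Tmem181a and its pseudogenes Tmem181b-ps and Tmem181c-ps, at places 120, 127 and 134 of chromosome 17, were all lower in KO arrays. Tmem181b-ps read 10.42, 10.65 and 10.64 on KO cTregs and 11.59 to 11.84 on control cTregs, and 10.88, 10.89 and 10.75 on KO eTregs and 11.90 to 12.18 on control eTregs. The fold was 2.21 in cTregs and 2.28 in eTregs, with an interaction of -0.04 (95% interval -0.36 to 0.27). Tmem181a fell by 0.76 in cTregs and 1.00 in eTregs, and Tmem181c-ps by 1.08 and 1.46. The same reserve about close copies applies to these.

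**Figure D5:**
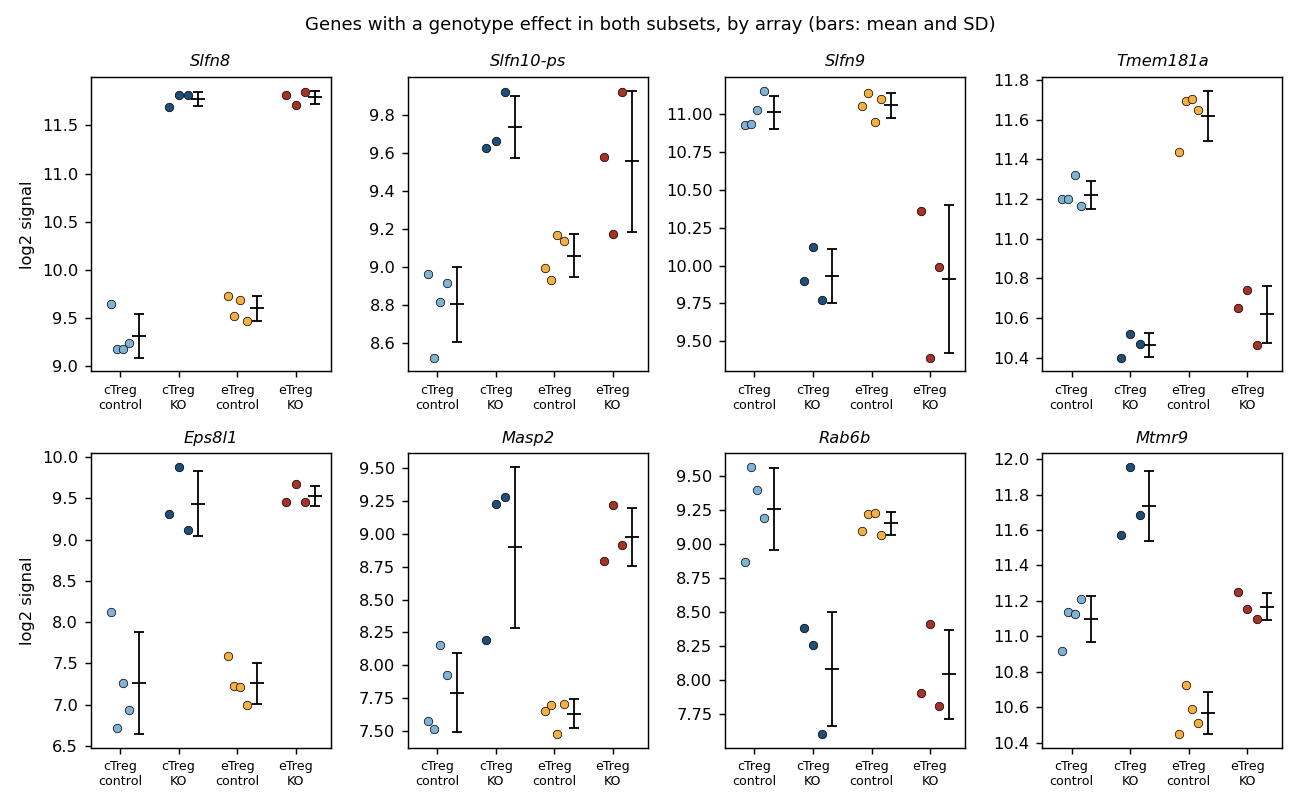
Log2 signal of 8 genes with an adjusted P below 0.05 for the average genotype effect on each of the 14 arrays, by subset and genotype label, with each gene on its own y axis; black bars give the mean and SD. For each gene the KO and control arrays of a subset do not overlap, and both subsets differ in the same direction; Slfn8 rose from 9.18 to 9.73 in controls to 11.69 to 11.85 in KO arrays.

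Eps8l1 (TC0700000033.mm.2, chromosome 7), which encodes a protein related to a regulator of actin, read 9.31, 9.88 and 9.12 on KO cTregs, 8.12, 6.71, 7.27 and 6.94 on control cTregs, 9.46, 9.67 and 9.46 on KO eTregs and 7.59, 7.23, 7.21 and 6.99 on control eTregs. It was 4.52-fold higher in KO cTregs and 4.83-fold higher in KO eTregs, and the interval of its interaction was wide (0.09, 95% interval -0.69 to 0.88). Masp2, a protease that starts the lectin pathway of complement, was higher by 1.1 and 1.34, with KO cTreg 1 at 8.19 close to control cTreg 3 at 8.15. Rab6b, a small GTPase of the Golgi, was lower by 1.17 and 1.11 (cTregs first in each pair).

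The rest had averages of 0.43 to 1.52 in size. Mtmr9, a myotubularin family member that regulates phosphatases of phosphatidylinositol 3-phosphate, was higher by 0.64 in cTregs and 0.60 in eTregs (interaction -0.04, 95% interval -0.39 to 0.31). H2-M3, which presents formylated peptides, was higher by 0.63 and 0.68, Irgm2, an interferon-induced GTPase, by 0.58 and 0.51, and Rasa4, which inactivates Ras, by 0.38 and 0.63. The transcript 4930481A15Rik was lower by 1.04 and 1.07, Gm19684 by 0.58 and 0.58, and Pgm2, a phosphoglucomutase whose transcript RefSeq names Pgm1, by 0.45 and 0.42.

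Ppp1r3e, a glycogen-targeting subunit of a phosphatase, came nearest to a difference between subsets among the 18, with -0.84 in cTregs and -0.48 in eTregs (interaction 0.37, 95% interval -0.01 to 0.75). 3830403N18Rik, on the X chromosome, was higher by 1.82 and 1.23, from control means near background. By chromosome, 5 of the 20 were on chromosome 11, 5 on 17, 2 each on 4, 7 and 14 and 1 each on 5, 9, 19 and X. The 2 on chromosome 14, Ppp1r3e and Mtmr9, lay 426 and 699 genes from Atg14.

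At the study threshold 34 transcript clusters were called between genotypes in both subsets. The direction was the same for 29 (0.131% of those tested), 12 higher and 17 lower in KO, and opposite for the 5 named above. The genotype effects of both subsets share no array, but they share the chimeras that both were sorted from.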

How the data were processed

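RNA of sorted mouse Tregs was hybridized to Clariom S arrays (14 samples, 4 groups by title). The authors summarized probes by robust multi-array average (Affymetrix Expression Console 1.1, per the submitters' processing notes). The values they deposited are thus on the log2 scale, already background-corrected and quantile normalized, and these steps could not be undone. Quantile normalization forces the same distribution on all arrays and can hide a shift of most genes. No genome build is given for the identifiers in the sources used here. Chromosomes come from their code, and gene order and promoters from RefSeq tables (GRCm38.p6).

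Of 28846 entries, 6640 control probe sets and 3 without a symbol were left out, and no filter on signal was used. A model with 4 group means was fitted to 22203 transcript clusters (21902 symbols) with limma 3.58.1 in R 4.3.3 (lmFit, eBayes; 10 residual and 5.65 prior degrees of freedom; version 1.17.8 of the package data.table), with contrasts for the genotype effect in each subset, their difference and their average. P values are two-sided and adjusted by Benjamini-Hochberg over all transcript clusters. The code was tested on simulated data. The number of arrays limits the precision: the median SE was 0.19 for the interaction and 0.14 for the eTreg effect.

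Named genes are the 10 smallest P among positive and among negative interactions with an absolute value of at least 0.5 and a highest group mean at or above the median, all with an adjusted P below 0.05 for the average, all called in both subsets with opposite signs, and members of hand-written gene lists. Genes named from the fit without KO eTreg 1 were chosen after their values were seen. Members and lists were chosen with earlier results of these data known, and 2 lists come from other arrays of the study. Lists were counted, not tested. Alternatives were a filter, 3 other scalings, robust and trended eBayes, array weights, the replicate number as a block and leaving out each array. Figures were drawn with matplotlib.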

Additional observations from a re-analysis of the deposited data

Results flagged for a closer look

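In 3 of 84 groups of 4 arrays examined for the named genes, 1 array stood far from the other 3, as judged by its gap to the nearest array divided by the range of the group. Chance gives about 1 in 20 such groups. The share of the range was 0.928 for Scd4 in control cTregs, where control cTreg 4 read 8.66 and the others 8.52 to 8.53. It was 0.880 for Zfp300 in control cTregs, where control cTreg 2 read 7.21 and the others 6.67 to 6.73. It was 0.858 for Slfn8 in control cTregs, where control cTreg 1 read 9.65 and the others 9.18 to 9.24.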

How the results depend on the processing

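None of the 23 genes named for the interaction and the 20 named for the average turned its direction under the alternatives run; other list members were not rerun singly. Without KO eTreg 1 the median interaction changed sign for effector Treg genes (-0.19 to 0.04), Vps34-activated genes (-0.03 to 0.20), apoptosis genes (-0.04 to 0.05) and plasma cell genes (-0.11 to 0.08). Under other settings it changed sign for oxidative phosphorylation genes (-0.01 without KO cTreg 1) and interferon-stimulated genes (-0.02 with array weights). The same held for neutrophil genes (-0.05 without KO cTreg 3) and erythroid genes (0.27 with the filter). For the interaction at the study threshold the 677 calls became 226 with a filter at the 60th percentile of mean signal (223 of them shared), and 499 (without KO cTreg 1) to 1430 (without KO eTreg 1) with 1 array left out. At the adjusted threshold the count of 0 became 1 with array medians subtracted, 3 with array weights, and 0 to 207 with 1 array left out (207 without KO eTreg 1, 1 without control eTreg 3). The 20 genes with an adjusted P below 0.05 for the average became 13 with the filter (10 shared), 137 with array weights, and 16 to 321 with 1 array left out (321 without KO eTreg 1, 60 without control eTreg 1). The 34 genes called in both subsets became 20 with the filter and 29 to 52 with 1 array left out (52 without KO cTreg 3). The cause of these differences was not tested, except that the filter tests fewer genes. The interaction of the 23 genes named for it kept its call in 517 of 518 fits, the exception being Maged2 without KO cTreg 2 (-0.47). The average kept its call in 380 of 430 fits over 20 genes, 13 of which kept it in all, and those of Rasa4 and Pgm2 were lost in 13 fits each. Both sets of genes were chosen on these same arrays, so the kept calls and directions describe the choice. Of all 677 calls, fits with 1 array left out shared 360 (without KO cTreg 1) to 588 (without control eTreg 2).

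Both subsets came from the same chimeras, but no source says that a number marks a mouse or day, and whether the numbers pair the arrays is unresolved. Deviations from the group means correlated at 0.044 to 0.303 between same-numbered arrays of a genotype, above 0.1 in 5 of 7 pairs and in 1 of 18 with other numbers. Across genotypes this was so for 5 of 6 same-numbered pairs of different subsets and 4 of 6 of the same subset, against 2 of 18 each with other numbers. Since not every pair passed 0.1, the fit without a block was kept. With the replicate block, 781 interactions passed the study threshold for 7 fixed pairs, 819 for 7 random pairs and 761 for the number over all groups, and 0, 2 and 0 the adjusted threshold. The average lost its call for Havcr1, Gm19684, Irgm2, Rasa4 and Pgm2 with random pairs (adjusted P 0.0724 to 0.159), and for Siglech, Havcr1, Gm19684 and Rasa4 with the number over all groups (0.0519 to 0.0777).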
